A study of Mus musculus with 40 samples.

Results

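The first day of Pou5f1 shut-off in the late series of a mouse embryonic stem (ES) cell experiment was described here from 6 of the 40 arrays of the study. Members were chosen by title and time: 3 arrays of ZHBTc4(Tc+) cells at 24 hr of tetracycline (Tet) were set against 3 arrays of the same cells at 0 hr, on Agilent 60-mer arrays with 21052 gene probes. ZHBTc4 is a male ES cell line of strain 129/Ola in which the endogenous Pou5f1 alleles are disrupted and a transgene that Tet turns off supplies the POU5F1 protein, so cells at 0 hr and at 24 hr share the disrupted alleles and the transgene and differ in the exposure to Tet. The line is a clone, and nothing in the labels says whether the 3 arrays of a time came from separate cultures, so the p-values measure the spread between these arrays, which may be technical. The treatment text deposited with these arrays describes another construct and line, and the titles and the study's methods were followed here. No arrays of untreated cells at 24 hr are part of the comparison, so Tet and the time elapsed in culture cannot be told apart. On every array the sample was labelled with Cy3 and a common mouse reference RNA with Cy5, without dye swap, and the level of a gene is log2(Cy3/Cy5) of its probe.

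Pou5f1 (Oct4) is a POU-domain transcription factor that keeps ES cells pluripotent together with Sox2 and Nanog, and ES cells that lose it become trophoblast-like. ATF4 is a transcription factor that cells make when amino acids run short or the endoplasmic reticulum is stressed. It raises genes for amino acid synthesis, amino acid uptake and tRNA charging, and it binds, often with a C/EBP partner, to a composite element of which TGATGCAA is the usual form. SREBP2 raises the genes of cholesterol synthesis when sterols are low, and immediate early genes such as Fos and Egr1 rise within minutes of a growth factor or serum stimulus.

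The probe that reported Pou5f1 is shown because the check of the labels rests on it, and 5 promoter stretches are shown because genes of the amino acid response moved together and these windows hold the C/EBP-ATF element. Promoter windows of 250 bases before to 50 after the annotated start came from RefSeq (GRCm38.p6) and were found for 8911 of the 11257 genes tested with a symbol. Capitals mark TGATGCAA in Herpud1, Nupr1 and Vldlr, and TGATGNAA, the same element with any base at position 6, in Pck2 and Asns. Both strands were searched, and a stretch that shows the reverse complement, TTGCATCA, holds the element on the opposite strand. Every TGATGCAA is also counted as a TGATGNAA.
Pou5f1 probe: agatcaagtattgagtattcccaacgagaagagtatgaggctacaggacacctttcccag
Herpud1, chr8:94386299-94386342, + strand: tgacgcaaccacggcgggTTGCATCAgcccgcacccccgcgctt
Nupr1, chr7:126625555-126625598, - strand: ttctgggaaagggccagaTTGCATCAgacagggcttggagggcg
Vldlr, chr19:27216802-27216845, + strand: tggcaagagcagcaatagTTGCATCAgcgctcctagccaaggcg
Pck2, chr14:55540145-55540188, + strand: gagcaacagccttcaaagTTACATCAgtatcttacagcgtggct
Asns, chr6:7693210-7693250, - strand: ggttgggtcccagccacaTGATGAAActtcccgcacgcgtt

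TGATGCAA lay in 0.842% of the 8911 promoter windows, which is 75 genes. It lay in 15 of the 417 genes called lower at 24 hr that have a window (3.6%) and in 3 of the 568 called higher (0.528%). Among the ATF4 and amino acid response genes described below it lay in 7 of 29 windows (24.1%), and among cytosolic aminoacyl-tRNA synthetase genes in 3 of 8 (37.5%). Those 7 amino acid response genes include Got1, Fgf21 and Slc7a11, which were not called, beside Herpud1, Nupr1, Vldlr and Slc1a4, which fell. With any base at that position the shares were 3.36% of all windows, 6.71% of the genes called lower, 1.94% of those called higher and 34.5% of the amino acid response genes. The octamer ATGCAAAT, a motif of POU factors that shares ATGCAA with TGATGCAA, so that a stretch can count for both, lay in 2.1% of all windows, 2.64% of the genes called lower and 1.58% of those called higher. A sterol element, TCACCCCAC, lay in none of the 9 windows of cholesterol synthesis genes, in 0.64% of all windows and in 0.352% of the genes called higher. With any base at its position 5 (TCACNCCAC) it again lay in none of the 9, in 1.41% of all windows and in 0.88% of the genes called higher.

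Median Cy3 signals were 721 to 776 on the 0 hr arrays and 613 to 702 on the 24 hr arrays, with a local background of 365 to 390. Median Cy5 signals were 597 to 645 at 0 hr and 569 to 592 at 24 hr, so the 24 hr arrays were dimmer in both channels. Signals of the negative control spots differed between the times: their median in Cy3 was 573 to 586 on the 0 hr arrays and 483 to 549 on the 24 hr arrays. A probe is called dim here where it lay below the 95th percentile of the negative controls of its array, as 16.3% to 30.2% of gene probes did. The first 24 hr array had 591 spots set aside as outliers, against 109 to 162 on the other arrays, so some genes below rest on the other 2 arrays of 24 hr. Arrays of 1 time correlated with each other at 0.960 to 0.982 and arrays of different times at 0.874 to 0.896, across genes, which are not independent replicates. Precision is limited by the number of arrays.

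Pou5f1 fell on every array. Its level was 1.91, 2.40 and 2.04 on the 0 hr arrays and 0.0066, -0.30 and 0.094 on the 24 hr arrays. The groups did not overlap, and the change of -2.18 on the log2 scale (SE 0.11, a 4.54-fold fall, limma adjusted p = 2.4e-10) was larger than the spread between arrays. With the 6 arrays of 0 and 24 hr fitted alone the SE was 0.15 (limma adjusted p = 4.4e-05). In Cy3 alone the change was -2.57, and without background subtraction it was -1.04. On 1 of the 24 hr arrays the Pou5f1 signal lay under the dim-probe limit. An exact two-sided permutation test over the 6 arrays gave p = 0.1, the smallest that 3 against 3 allows. Pou5f1 stayed near the 24 hr level later, with means of -0.026 at 48 hr and 0.048 at 120 hr.

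Across the array, 1568 of 20710 genes were called, that is 7.57%, where a gene is called if it changed at least 1.5-fold with a limma adjusted p below 0.05. Falls and rises were close in number in the ratio, with 750 genes lower (3.62%) and 818 higher (3.95%) at 24 hr. Probes without a symbol are counted as genes here. Of the 11257 genes with a symbol, from which all list members come, 1232 were called (544 lower, 688 higher), a larger share. Shares over all genes tested are therefore a low reference for the lists below. Falls reached further: 231 genes fell and 203 rose more than 2-fold (434 in all, 2.10%), and 28 fell and 15 rose more than 4-fold. For 1390 of the 1568 called genes the 3 arrays of 24 hr lay on 1 side of the 3 of 0 hr, beside 34.0% of all genes tested. Cy3 alone, which leaves the reference channel out, gave the same sign for 1562 of the 1568 and called 1384 of them in the same direction. By itself Cy3 alone called 2379 genes (11.5%), of which 947 were lower and 1432 higher. The authors' normalized values gave 419 lower and 1086 higher, and without background subtraction 663 genes were called. The reference channel itself changed by 1.5-fold or more at 41 of the 1568 genes called in the ratio. Dim probes leave the size of some changes inexact. Under the dim-probe limit lay 26 genes called lower on all 3 arrays of 24 hr, and 65 called higher on all 3 arrays of 0 hr.

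**Figure D1:**
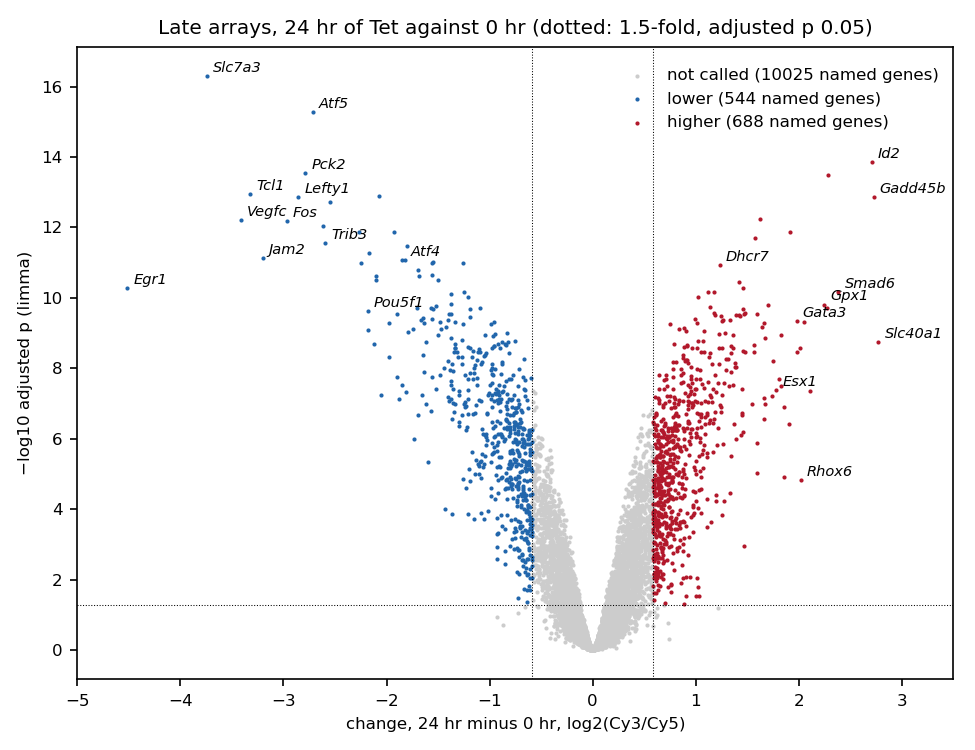
Change from 0 to 24 hr of Tet on the late arrays, log2(Cy3/Cy5), against −log10 of the limma adjusted p, 1 point per gene with a symbol (544 lower, 688 higher). Egr1, Slc7a3, Vegfc and Tcl1 lie furthest to the left, and Slc40a1, Gadd45b and Id2 furthest to the right.

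The 12 largest falls among genes with a symbol and non-overlapping arrays included 5 amino acid response genes and 4 genes known from ES cells. The amino acid response list was drawn up after these values had been seen, so the count of 5 was favoured by that choice. The largest was Slc7a3, a transporter of cationic amino acids, with levels of 3.05, 2.89 and 3.02 at 0 hr against -0.73, -0.73 and -0.83 at 24 hr, a 13.4-fold fall. At its probe the reference channel changed by -1.05 and Cy3 alone by -4.80. Of the same response were Pck2 (mitochondrial phosphoenolpyruvate carboxykinase, -2.79), Atf5 (a basic leucine zipper factor, -2.71), Trib3 (a pseudokinase induced by ATF4, -2.60) and Cth (cystathionine gamma-lyase, -2.54). Genes known from ES cells were Tcl1 (a coactivator of the AKT kinase, -3.33), Jam2 (a junctional adhesion molecule, -3.20), Lefty1 (a secreted Nodal inhibitor, -2.86) and Nr0b1 (an orphan nuclear receptor that interacts with POU5F1, -2.27). The others were Vegfc (a lymphatic growth factor, -3.41), Fos (-2.97) and Myof (a membrane repair protein, -2.62). Vegfc lay under the dim-probe limit on all 3 arrays of 24 hr, so its level there is known only as low. Tcl1 had levels of 4.60, 4.59 and 4.32 at 0 hr and of 1.03, 1.35 and 1.15 at 24 hr, a 10.0-fold fall. The reference channel changed by -0.90 at Tcl1, by -1.16 at Jam2 and by -0.73 at Nr0b1, and Cy3 alone by -4.30, -4.37 and -3.14. The part of the reference channel in these falls was not tested.

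The 12 largest rises under the same conditions included Id2 and Smad6 of the BMP pathway and Gata3 and Rhox6 of the trophoblast. Id2, an inhibitor of basic helix-loop-helix factors and a target of BMP signalling, had levels of -3.72, -3.66 and -3.74 at 0 hr and -1.09, -1.02 and -0.90 at 24 hr, a 6.53-fold rise. Smad6, an inhibitory Smad, had levels of 0.41, 0.37 and 0.63 against 2.95, 2.96 and 2.66, a 5.22-fold rise. The groups stood apart by more than their spread in both genes, for which non-overlapping arrays were a condition of choice. Gadd45b, a stress-induced regulator of p38 and JNK kinases, rose by 2.73, and Gata3, a zinc finger factor of the trophectoderm, by 1.98. Slc40a1, the iron exporter ferroportin, rose by 2.77 but lay under the dim-probe limit on all 3 arrays of 0 hr. Of the other 7, 6 are named here: Hs3st3b1 (a heparan sulfate sulfotransferase, 2.28), Klhl13 (an adaptor of a ubiquitin ligase, 2.11), Prtg (a membrane protein of the immunoglobulin superfamily, 2.05), Rhox6 (a placental homeobox factor, 2.02), Efnb2 (ephrin-B2, 2.02) and Htra1 (a secreted serine protease, 1.92).

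**Figure D2:**
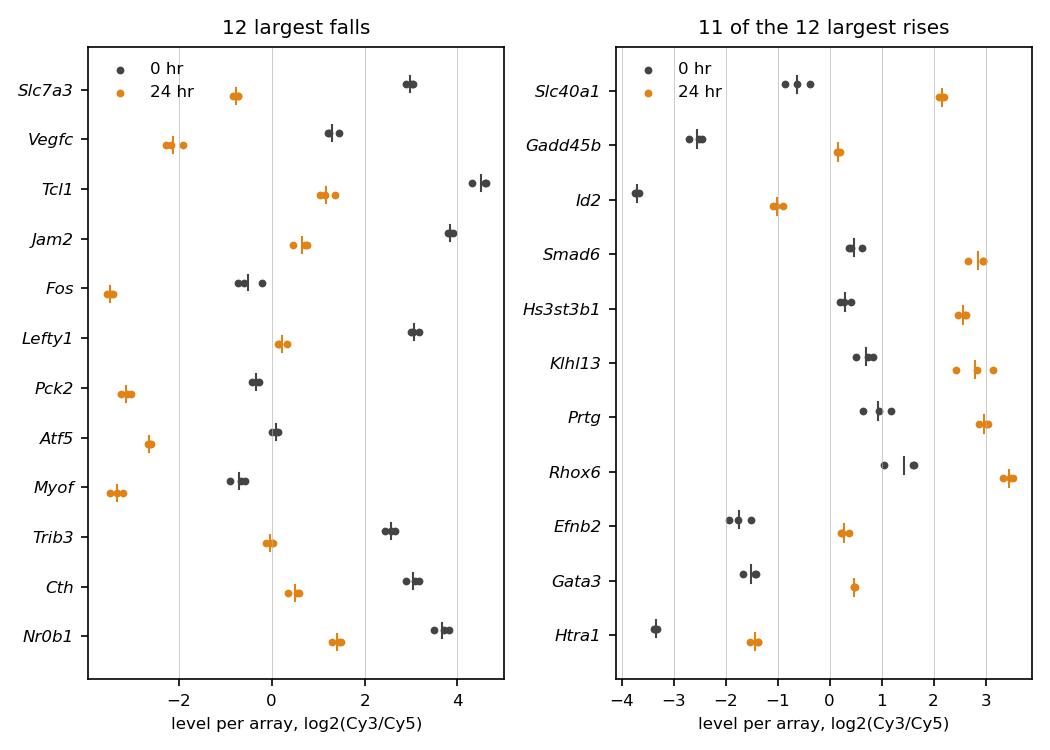
Levels, log2(Cy3/Cy5), of the 12 genes with the largest falls (left) and 11 of the 12 with the largest rises (right), 1 point per array (3 at 0 hr, 3 at 24 hr) and a tick at each group mean. The 2 groups lie apart for each gene, a condition by which these genes were chosen.

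Pluripotency factors fell in part. Of 23 measured core and naive pluripotency transcription factors 9 fell, none rose and 14 were not called, and the median change was -0.38, beside -0.0052 over all genes tested. In Cy3 alone the median was -0.92, with 13 called lower and 1 higher. Beside Nr0b1 and Pou5f1 the fallen factors were Klf5 (-1.90), Klf4 (-1.73), Klf2 (-1.27), Foxd3 (-1.70), Mybl2 (-1.36), Etv5 (-0.92) and Tbx3 (-0.59, which missed 1.5-fold under several other settings). Foxd3, a forkhead factor needed for ES cell survival, had levels of 2.25, 2.42 and 2.43 at 0 hr and 0.76, 0.62 and 0.61 at 24 hr. Klf4, whose values are missing on the first array of each time, had levels of 2.31 and 2.63 against 0.55 and 0.92.

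Other core factors were not called on the first day. The change of Nanog was -0.14, that of Sall4 -0.014 and that of Esrrb -0.22, with Esrrb under the dim-probe limit on all 6 arrays. Sox2 changed by -0.26 and Zfp42 by -0.38 in the ratio, while in Cy3 alone they changed by -1.28 and -1.44 and were called lower. Without background subtraction both were also called lower (-0.80 and -0.68), as was Sox2 with the correction of Cy5 bleaching (-0.87). At the same probes the reference channel changed by -0.90 and -1.26, although every array carries the same reference RNA. The part of the reference channel in these ratios was not tested.

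Of further genes high in ES cells 11 of 29 fell, 1 rose (Igfbp3, 0.69) and 17 were not called, with a median change of -0.44. In Cy3 alone the median was -0.78, with 16 called lower and 3 higher. Cobl, an actin nucleator, changed by -2.10, and Spp1 (osteopontin) by -1.79. Tdgf1, the Nodal coreceptor Cripto, had levels of 2.51, 2.01 and 2.42 at 0 hr and 0.96, 1.11 and 0.65 at 24 hr. Its other probe changed by -1.01. Stmn2 (-1.37), Nmnat2 (-1.15), Tdh, the threonine dehydrogenase of mouse ES cells (-1.05), Ooep (-0.94) and Rif1 (-0.69) fell as well. The changes of Dppa3 (0.039), Fgf4 (-0.30), Gdf3 (-0.21) and Alpl (0.081) were not called.

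Genes of the trophectoderm, the first outer layer of the embryo, rose in part. Of 21 measured trophectoderm transcription factors 11 rose and none fell, with a median change of 0.61, and 10 were not called. Without background subtraction 6 rose and the median was 0.20, and over the other alternatives the median reached 0.84. Esx1, a homeobox factor of the placenta, had levels of 0.40, 0.38 and 0.55 at 0 hr and 2.33, 2.13 and 2.23 at 24 hr. Gata3 had levels of -1.41, -1.43 and -1.67 against 0.46, 0.47 and 0.49. For both genes every 24 hr array lay above every 0 hr array. Gata2 (1.57), Arid3a (1.36), Ascl2 (1.18), Tfap2c (0.89), Yap1 (0.90), Msx2 (0.73), Irx3 (0.63) and Grhl1 (0.61) also rose. The largest rise in this list was that of Id2 (2.71), which is counted again in the Nodal, activin and BMP list below. Without background subtraction Gata2 changed by 0.47 and was not called. Esx1, Gata2 and Irx3 lay under the dim-probe limit on all 3 arrays of 0 hr. Not called were Elf5 (-0.016), Hand1 (0.44), Elf3 (0.51) and Tfap2a (-0.11). Cdx2 is counted among the genes not called, but the study's methods describe its probe as unresponsive, so the arrays do not show whether it changed.

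Of 26 trophoblast and simple epithelial genes 12 rose, 1 fell (Lgals3, galectin-3, -0.95) and 13 were not called, with a median change of 0.51. The median was 0.28 without background subtraction and 0.85 in the authors' table. Krt18 (1.86), Krt7 (1.71) and Krt19 (0.96), keratins of simple epithelia, rose. Krt7 had levels of -0.69, -0.60 and -0.76 at 0 hr and 0.98, 1.05 and 1.04 at 24 hr. The tight junction proteins Cldn7 (1.08) and Cldn4 (0.71), the placental kinase Nrk (1.45, under the dim-probe limit on all 3 arrays of 0 hr), the homeobox factor Rhox9 (1.47) and the glucose transporter Slc2a1 (1.43) rose with them. Markers of later placental cells, Tpbpa (-0.026), Plac1 (-0.025) and Prl2c2 (-0.34), were not called. Sct (secretin) rose by 1.57 in the ratio and by 0.63 in Cy3 alone, and the reference channel at its probe changed by -0.96. With the correction of Cy5 bleaching Sct changed by 0.57 and was not called.

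The list with the largest median change of those examined was that of ATF4 and amino acid response genes, added after the values had been seen. Of 35 measured members 28 fell, none rose and 7 were not called, with a median change of -1.26 in the ratio and -1.28 in Cy3 alone. Atf4 itself had levels of 0.19, 0.054 and 0.11 at 0 hr and of -1.54, -1.78 and -1.79 at 24 hr, a 3.54-fold fall (log2 -1.82, SE 0.069, adjusted p = 8.5e-12). Trib3 had levels of 2.57, 2.45 and 2.66 against -0.0017, 0.026 and -0.13, and Pck2 of -0.34, -0.42 and -0.27 against -3.12, -3.02 and -3.25. In all 3 genes the change was many times the spread between arrays.

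The fallen genes of this list serve amino acid synthesis, uptake and stress signalling. Serine and folate-dependent synthesis was represented by Phgdh (-1.93), Psat1 (-1.81), Psph (-1.80), Shmt2 (-1.21), Mthfd2 (-1.44) and Aldh1l2 (-0.65), and asparagine synthesis by Asns (-1.66), measured on 2 arrays of 24 hr. Uptake was represented by Slc1a5 (-1.63), Slc3a2 (-1.26), Slc38a2 (-1.20), Slc7a5 (-1.12) and Slc1a4 (-0.90), and stress signalling by Nupr1 (-2.25), Herpud1 (-2.08), Sesn2 (-1.19), Ppp1r15a (-1.03), Ddit3 (CHOP, -0.91) and Cebpb (-0.77). The secreted factors Gdf15 (-1.85) and Stc2 (-1.34), the lipoprotein receptor Vldlr (-1.36) and the translation inhibitor Eif4ebp1 (-0.69) fell too. Herpud1 and Nupr1, whose promoter stretches are printed above, had levels of -0.91, -1.04 and -0.83 against -2.95, -3.01 and -3.05, and of -0.86, -0.63 and -0.58 against -2.94, -2.98 and -2.90. The 7 not called were Ddit4 (-0.44), Aldh18a1 (-0.34), Gpt2 (-0.28), Got1 (-0.14), Fgf21 (-0.028), Slc7a11 (-0.024) and Slc7a1 (-0.022).

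Enzymes that charge tRNAs in the cytosol, another list added after the values had been seen, gave 6 of 15 lower, none higher and a median change of -0.43. The 6 were Cars (-1.60), Nars (-1.43), Lars (-1.09), Gars (-0.99), Iars (-0.96) and Tars (-0.88). In Cy3 alone the median was -0.67. The third 24 hr array lay below the others for Cars (0.79, 0.81 and -0.087 on the 3 arrays) and Nars (1.05 and 0.088 on the 2 arrays with a value). Without that array the change of Nars was -0.95.

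Immediate early genes fell in part. In this list, added after the values had been seen, 7 of 28 fell and 2 rose, with a median change of -0.027. In Cy3 alone 5 were called lower and 4 higher. Egr1, a zinc finger factor induced by ERK signalling, had levels of -2.15 and -2.24 on the 2 arrays of 0 hr that gave a value and -6.59, -7.05 and -6.49 at 24 hr, where 1 array was under the dim-probe limit. It fell by 4.52 (SE 0.18), the largest change of all genes tested, and Egr1 stays outside the 12 largest falls because of its missing array. Fos had levels of -0.59, -0.71 and -0.21 at 0 hr and -3.42, -3.45 and -3.54 at 24 hr. Klf10 (-0.96), Junb (-0.93), Ier2 (-0.86), Ier3 (-0.81) and Atf3 (-0.69, under the dim-probe limit on all 3 arrays of 24 hr) fell less, Jun (0.86) and Gadd45b rose, and Dusp1 (-0.42), Egr2 (0.042), Egr3 (0.13), Nr4a1 (0.34) and Myc (0.13) were not called. Atf3 was not called in Cy3 alone (-0.58), in the authors' table (-0.58) or without background subtraction (-0.13).

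Signalling pathways of ES cells were followed by their feedback and target genes. In the FGF and ERK list, which shares 9 members with the immediate early genes, 7 of 21 fell and 3 rose. Of the 7, Egr1, Fos, Junb, Klf10 and Ier3 are counted in both lists, as is Jun of the 3. Etv5 (-0.92) and the ERK phosphatase Dusp4 (-0.74) fell, the phosphatase Dusp9 (1.44) and the FGF carrier Fgfbp1 (1.64) rose, and Spry2 (-0.013), Spry4 (0.23) and Dusp6 (-0.12) were not called. In the LIF and STAT3 list 6 of 15 fell and none rose, among them the feedback inhibitors Socs2 (-0.87) and Socs3 (-0.80) beside Klf4, Klf5, Junb and Tbx3. The receptor Lifr changed by -0.26 and was not called.

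In the Nodal, activin and BMP list 4 of 28 fell (Lefty1, Tdgf1, Inhbb at -0.99 and Id4 at -0.59), 3 rose (Id2, Smad6 and Smad3 at 0.88) and 21 were not called. Without background subtraction Inhbb (-0.36) and Smad3 (0.52) were not called. Lefty1 had levels of 3.05, 2.99 and 3.18 at 0 hr and 0.17, 0.34 and 0.14 at 24 hr. Nodal changed by -0.14, Bmp4 by -0.42 and Id3 by -0.38, none of them called, although Nodal was called lower in Cy3 alone (-0.93). In the Wnt list 1 of 25 fell (the secreted inhibitor Sfrp1, -1.37) and 1 rose (the inhibitor Dkk1, 0.86, under the dim-probe limit on all 3 arrays of 0 hr), while Axin2 changed by 0.050. Neither Wnt call held without background subtraction (Sfrp1 at -0.53, Dkk1 at 0.22).

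The p53 and stress response list overlaps the amino acid response, and 13 of its 24 measured members fell, 4 rose and 7 were not called, with a median change of -0.71. Without background subtraction 9 fell and the median was -0.41. Atf4, Trib3, Asns, Sesn2, Ddit3 and Ddit4 belong to both lists. Among targets of p53, Trp53inp1 (-1.23), Zmat3 (-1.10), Bbc3 (PUMA, -0.90), Pmaip1 (NOXA, -0.88) and the cyclin kinase inhibitor Cdkn1a (-0.72) fell, and Perp, a membrane protein of cell death and adhesion, rose by 0.65. Cdkn1a had levels of -0.14, -0.22 and -0.88 at 0 hr and -0.98, -1.05 and -1.36 at 24 hr, so its groups were close. Mdm2 (0.086), Bax (0.035) and Sesn1 (0.33) were not called. The Gadd45 genes went apart, with Gadd45a at -0.75, Gadd45g at 1.66 and Gadd45b at 2.73.

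Of 15 measured cholesterol synthesis genes 11 rose, none fell and 4 were not called, with a median change of 0.94 in the ratio and 1.03 in Cy3 alone. Without background subtraction 8 rose and the median was 0.59. Insig1, a sterol-regulated anchor of SREBP, had levels of -3.26, -3.20 and -3.30 at 0 hr and -1.97, -2.04 and -1.65 at 24 hr. Dhcr7, which makes cholesterol in the last step of the pathway, had levels of -1.24, -1.36 and -1.28 against -0.079, -0.11 and 0.0069. Each was higher on all 24 hr arrays than on any 0 hr array. Pmvk (1.22), Fdps (1.03), Fdft1 (0.95), Mvd (0.94), Msmo1 (0.79) and Nsdhl (0.73) rose too. The 4 not called were Mvk (0.58), Hsd17b7 (0.58), Sqle (0.47) and Sc5d (0.27), and Mvk, Hsd17b7 and Sqle were called in Cy3 alone.

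Chaperones and folding enzymes of the endoplasmic reticulum, a list added after the values had been seen, rose in 10 of 17 cases and fell in none, with a median change of 0.62. Derl2, which helps export misfolded proteins, changed by 1.26, the disulfide isomerases Pdia3 and Pdia4 by 1.20 and 1.11, Manf by 1.02 and the chaperone Hspa5 (BiP) by 0.95. Pdia4 had levels of -0.77, -0.85 and -0.97 at 0 hr and 0.18, 0.24 and 0.31 at 24 hr. Xbp1 (-0.22), Hyou1 (0.32) and Edem1 (0.17) were not called, and without background subtraction 5 of the 17 rose with a median of 0.35.

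Chromatin regulators fell more often than they rose, with 8 of 29 lower, 1 higher and a median change of -0.24 (-0.44 in Cy3 alone). Tet2, which oxidizes methylcytosine, had levels of 1.38, 1.58 and 1.73 at 0 hr and -0.61, -0.54 and -0.45 at 24 hr. The histone demethylases Kdm5b (-1.37), Kdm4c (-1.13) and Kdm3a (-0.68), the repressor Rest (-0.80), its cofactor Rcor2 (-0.69), the deacetylase Hdac2 (-0.74) and the polycomb cofactor Jarid2 (-0.69) fell. Kdm4c was not called without background subtraction (-0.52). Jarid2 was not called with the correction of Cy5 bleaching (-0.55) or without 24 hr replicate 3 (-0.58). The DNA methyltransferase Dnmt3b rose by 0.89. The polycomb subunits Ezh2 (0.030), Suz12 (-0.41) and Eed (-0.56) and the oxidase Tet1 (-0.26) were not called.

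In the list of 23 primitive endoderm genes 39.1% were called, the same share as among the pluripotency factors, in both directions and with a median change of 0.070. Of these genes 6 rose, among them the laminin Lamb1 (1.25), Amn (1.59) and Col4a1 (0.90), and 3 fell (Apoe at -0.90, Nid1 at -0.91 and Lama1 at -0.63). The Lama1 call was lost when the 6 arrays were fitted alone (limma adjusted p = 0.072) and under other alternatives, and its change was -0.39 without 24 hr replicate 3. Without background subtraction 1 of the 23 fell. The defining factors of that lineage, Gata6 (0.56), Sox17 (0.0063) and Sox7 (-0.052), were not called, although Gata6 was called in Cy3 alone (0.80). Of 19 epiblast and mesoderm genes Otx2 fell (-1.24) and Dnmt3b rose, and of 20 neural genes Tubb3 rose (1.30), shares of 10.5% and 5.00% beside the 7.57% over all genes. Among genes with a symbol the share called was larger. Of 13 measured markers of feeder fibroblasts (7.69% called) Vim rose (1.66) and none fell, and the collagens Col1a1 (-0.074) and Col1a2 (-0.12) were not called. In bulk RNA, a change in the number of cells of a kind and a change in RNA per cell cannot be told apart.

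In the adhesion, cytoskeleton and matrix list 10 of 34 rose and 1 fell, with a median change of 0.30 (0.19 without background subtraction). S100a6 (1.48), Cnn2 (1.34), Thbs1 (1.25), Anxa3 (1.05) and N-cadherin Cdh2 (0.95, under the dim-probe limit on all 3 arrays of 0 hr) rose beside Vim, and fibronectin Fn1 changed by -2.05. Among 33 cell cycle genes 7 rose and 2 fell (Mybl2 and Cdkn1a). Cyclin E1 (Ccne1) had levels of 1.16, 1.16 and 1.31 against 2.38, 2.44 and 2.37, and Cdc6 (1.11), the inhibitor Cdkn1c (1.03) and the phosphatase Cdc25a (0.87) rose too. Of 26 glycolysis and hypoxia genes 5 rose and 1 fell (Hk2, -0.61), of 67 respiratory chain and assembly genes 6 rose and 3 fell, and of 71 cytosolic ribosomal protein genes 4 fell and none rose, with a median change of -0.18 (11 fell, with a median of -0.34, from the processed signals without loess). Shares of 8.00% called in the Wnt list or 5.63% in the ribosomal list are near the 7.57% over all genes. Both were below the share among genes with a symbol (1232 of 11257). Without background subtraction 4 of the FGF and ERK list, 4 immediate early genes, 2 of the Nodal, activin and BMP list and 5 chromatin regulators fell, and 5 adhesion, 3 cell cycle, 2 glycolysis and hypoxia and 3 respiratory chain genes rose. Without 0 hr replicate 2 or 24 hr replicate 2, 4 cell cycle genes rose, and without 0 hr replicate 1 or 24 hr replicate 2, 5 and 7 respiratory chain genes fell.

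**Figure D3:**
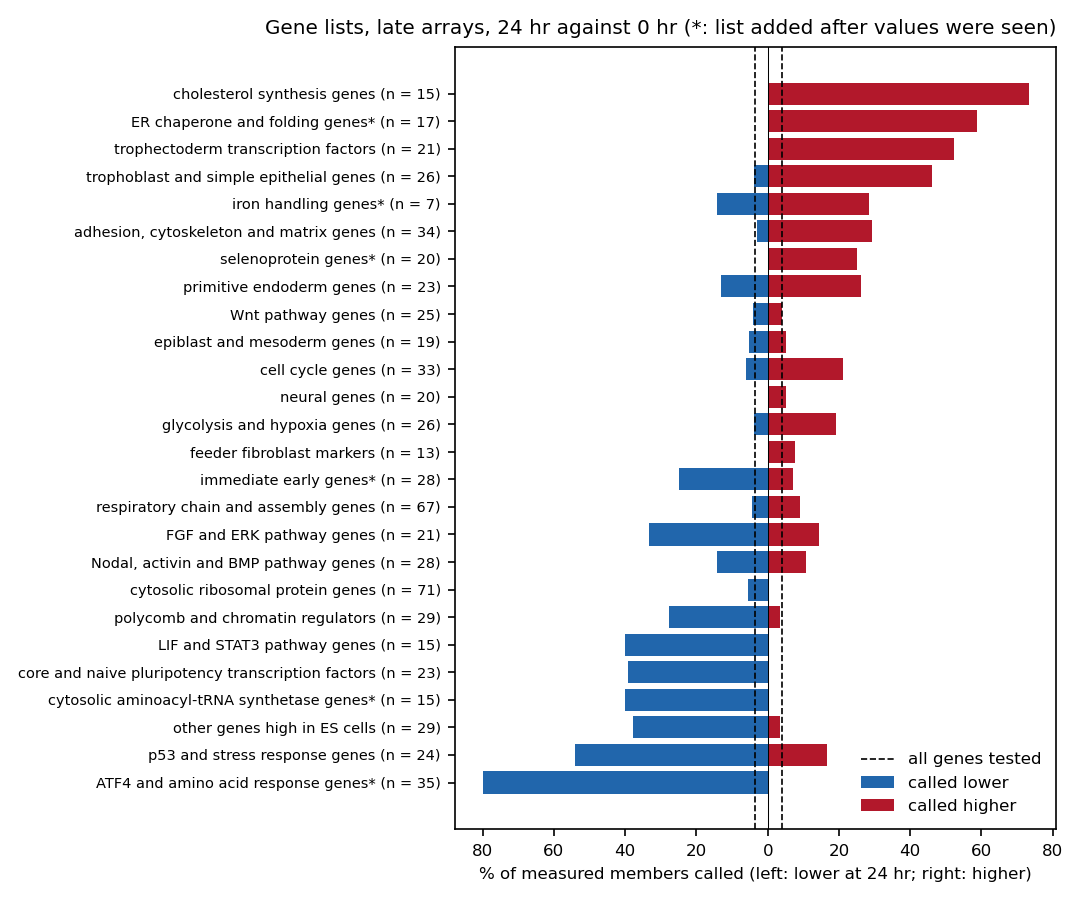
Percent of the measured members of each list called lower (left) or higher (right) at 24 hr, ordered by median change, with dashed lines at the shares over all 20710 genes tested (3.62% lower, 3.95% higher). All members have a symbol, and the shares among the 11257 genes with a symbol were larger (544 lower, 688 higher). ATF4 and amino acid response genes stand at the lower end (28 of 35 lower) and cholesterol synthesis genes at the upper end (11 of 15 higher).

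The times after 24 hr share the 0 hr arrays with the comparison above and show how the first-day levels went on. Atf4 had means of -1.70 at 24 hr, -1.65 at 48 hr and -1.24 at 120 hr, and Egr1 of -6.71, -6.34 and -6.00, so that 0 hr stood apart from all later times. Other falls turned back. Fos went from -3.47 at 24 hr to -1.43 at 120 hr, still below its 0 hr mean of -0.50. Myof went from -3.33 to 1.21 over the same times, above its 0 hr mean of -0.71. Tcl1 went on falling, from 1.18 at 24 hr to 0.12 at 48 hr, and Sox2 went from 5.12 at 24 hr to 3.97 at 48 hr and 1.13 at 120 hr. Gata3 rose from 0.47 at 24 hr to 2.60 at 120 hr.

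**Figure D4:**
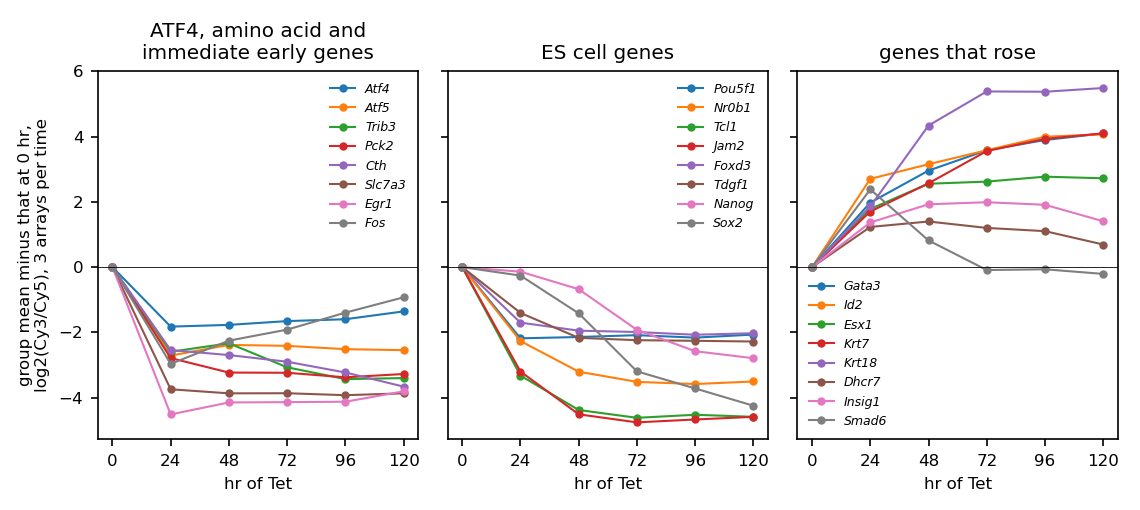
Group mean of 3 late arrays per time minus that at 0 hr, log2(Cy3/Cy5), for genes of the amino acid and immediate early response (left), ES cell genes (middle) and genes that rose (right). All lines start from the same 0 hr arrays, the amino acid response genes step down by 24 hr and stay low to 120 hr, and Smad6 returns to its 0 hr level by 72 hr.

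The same cells were measured again at 0 and 24 hr in the early series, with 2 arrays per time on another array design, where Tet followed 24 hr after plating on gelatin without feeders. The plating and medium of the late cells are not given in the sources used here. Of 1524 called genes with a probe of identical sequence there, 1081 changed in the same direction on the early arrays, 418 were called in that direction and 61 in the opposite one. The early arrays called 10.9% of 18869 shared genes, of which 470 were lower (2.49%) and 1596 higher (8.46%). The difference between the changes (late minus early, limma, adjusted p of 0.05) passed for 956 of the 1524 genes, beside 31.6% of all shared genes. That share is 5967 genes, and with the correction of Cy5 bleaching 2482 passed. The 1524 genes were called by their late change, which enters the difference, so a larger share among them was favoured by the choice. The counts of members that differ, given below, are without that correction.

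Some ES cell and trophectoderm genes differed between the series. The difference passed for 8 of 23 pluripotency factors, 16 of 29 other ES cell genes, 8 of 21 trophectoderm factors and 11 of 26 trophoblast and epithelial genes, beside the 31.6% of all shared genes. For the pluripotency and trophectoderm factors the share was near that of all shared genes. Among ES cell genes that differed, Spp1 changed by -1.79 on the late and -0.058 on the early arrays, Klf4 by -1.73 and -0.19, Lefty1 by -2.86 and -1.57 and Dppa3 by 0.039 and -0.85. Gata3 of the trophectoderm differed too, with 1.98 late and 0.78 early. The genes given next were picked as ones whose difference missed the threshold. Tcl1 changed by -3.33 on the late and -2.94 on the early arrays (limma adjusted p of the difference = 0.13), Nr0b1 by -2.27 and -2.17 (adjusted p = 0.55), Foxd3 by -1.70 and -2.03 (adjusted p = 0.073) and Pou5f1 by -2.18 and -2.79 (adjusted p = 0.15). In the same limma contrast Id2 changed by 2.71 and 2.46 (adjusted p = 0.56) and Krt7 by 1.71 and 2.09 (adjusted p = 0.13). A difference that misses the threshold does not show that the changes were equal.

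Of the amino acid response genes 29 of 35 differed, beside 31.6% of all shared genes. The list was chosen from the late values, which enter the difference, so that choice favoured a high count. Their median change was 0.071 on the early arrays against -1.26 on the late ones. On the early arrays 3 of the 35 were called lower and 3 higher, with Slc7a3 at -2.29 and Ddit4 at 2.46. Atf4 changed by -1.82 late and 0.20 early, a difference of -2.02 (SE 0.12, adjusted p = 1.3e-10), and its early levels were -0.87 and -1.05 at 0 hr and -0.71 and -0.82 at 24 hr. Egr1 stood at -6.30 and -6.15 on the early 0 hr arrays, beside -2.15 and -2.24 on the late 0 hr arrays and -6.59 to -7.05 on the late 24 hr arrays. Fos stood at -3.81 and -4.02 on the early 0 hr arrays and at -0.71 to -0.21 on the late ones. Levels were normalized separately in the 2 designs, and differences are the quantity tested.

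Other lists differed in part between the series. Cholesterol synthesis genes had an early median change of 0.13 with 2 of 15 called higher, and 9 differed from the late change. Of the p53 and stress response genes 17 of 23 differed, and Cdkn1a changed by -0.72 late but 1.57 early. Cebpb (-0.77 late, 1.45 early) and Fgfbp1 (1.64 and -0.98) were called in opposite directions, as was Ccne1, higher late and lower early. Trophectoderm factors had early and late medians of 0.53 and 0.61, and other ES cell genes of -0.44 in both series.

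**Figure D5:**
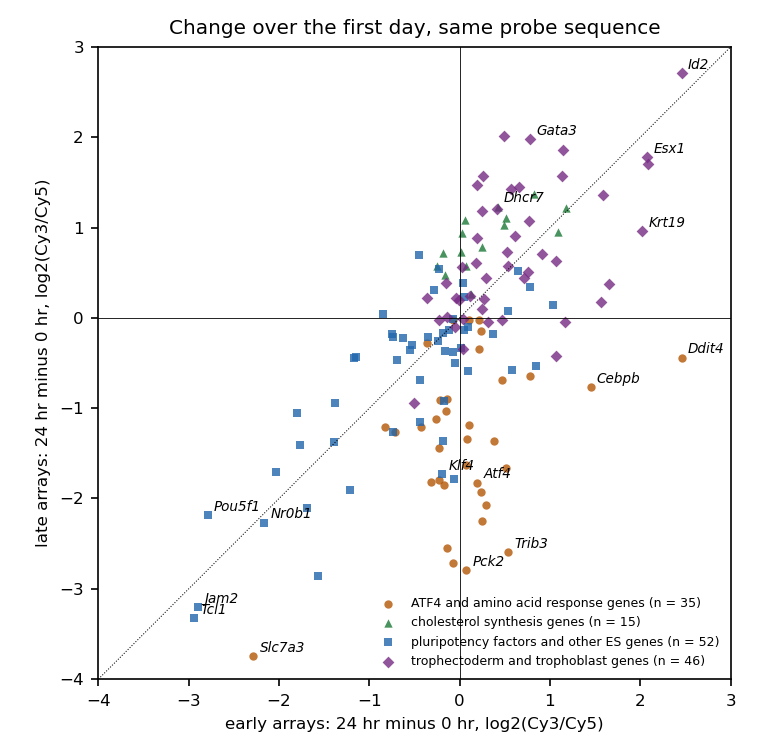
Change from 0 to 24 hr on the late arrays (3 per time) against that on the early arrays (2 per time), 1 point per gene with a probe of identical sequence, in 4 gene groups, with the line of equal change dotted. Of the ES cell genes Tcl1 and Nr0b1 lie near the line and Lefty1, Spp1 and Klf4 lie below it. Of the amino acid response genes, a list chosen from the late values, 29 of 35 lie below it by a difference that passed the test.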

How the data were processed

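RNA of the 6 late arrays was labelled with Cy3 and the Universal Mouse Reference with Cy5. The authors scanned the arrays and deposited spot intensity values made with Agilent Feature Extraction 7.5.1, and a table of normalized log10 values, which follow the Cy3 intensity (medians 2.91 to 2.94 on the 6 arrays) and whose exact centring is unknown. The authors' log10 table served as an alternative. Here mean signals were background corrected (normexp, offset 50) and loess normalized within arrays in limma 3.58.1 (R 4.3.3), control spots and outlier spots left out. A fit (lmFit, eBayes, two-sided, Benjamini-Hochberg over all probes) held all 18 late arrays, and the contrast was 24 hr minus 0 hr. The brightest of a gene's probes was kept, and 20710 genes were tested, of which 11257 had a symbol through RefSeq accession or the study's table by probe sequence. Of 291 genes with several probes, 55 had a called probe and 1 had probes called in opposite directions. Named genes were the 12 largest falls and rises among genes with a symbol and non-overlapping arrays and the same sign in Cy3 alone, list members and Pou5f1, and some genes that pass these rules are not reported here. Members and lists were chosen with earlier results of these data known, and the lists said to be added were chosen from the values themselves. The late-minus-early contrast was fitted on 18 late and 10 early arrays. Replicate numbers did not pair the arrays (correlations of deviations between -0.43 and -0.0080 for equal numbers). The fit was also run on simulated data, the outcome of which is not reported here. Figures were drawn with matplotlib 3.10.9. Alternatives were other background corrections, channels, normalizations, filters, error variances, a replicate block and leaving out arrays.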

Additional observations from a re-analysis of the deposited data

Results flagged for a closer look

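The change from 0 to 24 hr differed between the late and the early arrays, by the limma contrast of the 2 changes over all shared probes, for 29 of the genes named for it (values are late minus early changes on the log2 scale, adjusted p between 4.9e-11 and 0.0082). Genes named for it were those with the largest late changes and others picked for it, and only those that passed are listed. The late change enters the difference, so this choice favoured large differences. Over the alternatives Gadd45b ran from 0.65 to 2.92 and Prtg from 0.53 to 0.95, and each missed the threshold under at least 1 of them. Values that passed throughout but moved by more than 1.5-fold were those of Ddit4 (-3.23 to -1.27), Cdkn1a (-2.52 to -1.23), Spp1 (-2.04 to -0.76) and Htra1 (0.95 to 2.52). Vegfc at 24 hr and Slc40a1 at 0 hr lay under the dim-probe limit on all 3 late arrays. The sizes of their late changes and of their differences are therefore not exact. Over the alternatives the late change ran from -4.02 to -1.54 for Vegfc and from 1.27 to 3.22 for Slc40a1. Amino acid response genes changed lower on the late arrays: Trib3 (-3.14), Ddit4 (-2.90), Pck2 (-2.86), Atf5 (-2.64), Cth (-2.40), Cebpb (-2.22), Atf4 (-2.02) and Slc7a3 (-1.46). The immediate early genes Egr1 (-4.44) and Fos (-3.53) did so too. Further genes with a lower change on the late arrays were Cdkn1a (-2.29), Spp1 (-1.73), Klf4 (-1.54), Myof (-1.47), Vegfc (-1.30) and Lefty1 (-1.29).

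A higher change on the late arrays was seen for Fgfbp1 (2.62), Klhl13 (1.90), Slc40a1 (1.80), Smad6 (1.80), Ccne1 (1.80), S100a6 (1.66), Rhox6 (1.52), Hs3st3b1 (1.25), Htra1 (1.25), Gata3 (1.20), Efnb2 (1.09), Gadd45b (1.01) and Prtg (0.74). For Egr1, Fos, Atf4 and Atf5 the late 0 hr arrays lay apart from the late 24 hr arrays and from all early arrays of 0 and 24 hr, with levels normalized separately in the 2 designs. The 2 series are separate experiments on separate array designs, and these cannot be told apart.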

How the results depend on the processing

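Pou5f1 stayed lower and past the threshold under every alternative run, between -2.57 and -1.04, and between -2.29 and -2.04 when arrays were left out. The 1568 calls (750 lower, 818 higher) became 2379 with Cy3 alone (1432 higher), 663 without background subtraction (327 lower, 336 higher) and 434 at 2-fold. The authors' table tests 16139 genes and gave 419 lower against 1086 higher. The share of calls that were lower was 47.8% in the ratio, 39.8% in Cy3 alone and 27.8% in the authors' table. Leaving out 1 array gave 1553 to 1699 calls (682 to 840 lower, 743 to 1009 higher). Without 0 hr replicate 3 or 24 hr replicate 3 the lower share was 40.7% and 40.6%. The late-minus-early difference passed for 5967 shared genes, for 2482 with the correction of Cy5 bleaching, and for 4245 to 6477 without 1 array. With the replicate block, 1580 genes were called, 1561 of them shared with the main calls, and among the genes followed through the alternatives it changed the call of Mvk (0.61, called) and no other. Of the changes of single named genes, 2718 values over all alternatives kept their side of the threshold, 54 lost and 32 gained a call, and none reversed. Tbx3, Lama1, Ccna2, Txnrd1, Sct, Atf3, Cdkn1a, Dusp4, Nid1, Jarid2 and Cldn4 lost theirs under at least 1 alternative. Without background subtraction Gata2, Nrk, Ddit3, Vldlr, Cdkn1c, Dkk1, Sfrp1, Igfbp3, Inhbb, Smad3, Jun, Junb, Kdm4c, Lgals3, Pmaip1 and Thbs1 did too. Calls were gained under at least 1 alternative by Sox2, Zfp42, Nodal, Gata6, Gpx4, Mvk, Hsd17b7 and Sqle. Causes of these shifts were not tested. Quantile scaling of the intensities after loess leaves the ratio as it is and tests nothing. Scan batches could not be fitted, since each array is a slide of its own. Dim probes limit precision: negative controls were brighter at 0 hr.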

Other observations

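Selenoprotein genes, a list chosen after the values had been seen, rose in 5 of 20 cases and fell in none (median change 0.24). Without background subtraction 3 rose and the median was 0.11. Gpx1, the cytosolic glutathione peroxidase, had levels of -1.61, -1.49 and -1.44 at 0 hr and 0.64 and 0.82 on the 2 arrays of 24 hr that gave a value. Selenoh had levels of -1.43, -1.35 and -1.48 against 0.44 and 0.68. Both stood clear of the 0 hr arrays, and neither is among the 12 largest rises because of the missing array. Selenon (0.88), Txnrd1 (0.67) and Msrb1 (0.61) rose too, while the phospholipid peroxidase Gpx4 (0.49) was not called. On the early arrays Gpx1 changed by 0.17 and Selenoh by -0.95.

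Of 7 measured iron handling genes, also listed after the values had been seen, Slc40a1 (2.77) and the ferritin heavy chain Fth1 (1.23) rose and the iron importer Slc11a2 fell by 0.68. The transferrin receptor Tfrc (0.51) and the ferritin light chain Ftl1 (-0.051) were not called. Over the alternatives 0 to 1 of the iron handling genes were called lower and 2 to 4 higher.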
